A study of Mus musculus with 6 samples.

Results

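The unfolded protein response and endoplasmic reticulum (ER) folding genes are 35 genes whose products sense misfolded protein in the ER, fold and modify proteins there, or carry failed proteins out for degradation. They were taken by symbol: a probe set counted for a gene if the platform's probe table gave it that 1 gene symbol, and the probe set of highest mean over 6 arrays stood for the gene. All 35 listed genes were on the array, out of 12393 genes with such a probe set, and together they had 73 probe sets. The genes were placed in branches from general knowledge, 8 with PERK, 11 with IRE1 and 16 with ATF6 and the folding machinery, and since many are targets of more than 1 branch this division is a convenience.

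Aortas of C57BL/6J mice, an inbred strain that gains weight on a fat-rich diet, were compared after high fat feeding and after regular chow, with 3 Affymetrix arrays a diet and wild-type animals throughout. The aortas were cleaned of adventitia and of the fat around the vessel, and every array held the pooled RNA of 3 of them, so that an array is a pool and not an animal. High fat replicates 2 and 3 began the diet at 10 weeks of age and stayed on it for 16 to 18 weeks, and the label age of chow replicates 2 and 3 was 26 to 28 weeks. High fat replicate 1 was on the diet for 16 to 18 weeks as well, but its label gives an age of 16 to 20 weeks, and chow replicate 1 has no age, so that the ages of these pools could not be matched. Males were stated for every pool but high fat replicate 1. The values are MAS5 signals on a linear scale, for which no detection calls were used here. The 6 arrays had median signals of 58.4 to 66.6. Between 42.0% and 46.3% of an array's signals lay under 50, where background and expression are hard to separate. The tissue label held for smooth muscle, with Acta2 signals of 7181 to 9545 and Myh11 signals of 3212 to 3920 on the 6 arrays, but heart and adipocyte markers were present too, as given below beside the members.

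The sensor proteins of the ER membrane start the response when unfolded protein accumulates. PERK phosphorylates a translation factor, which slows protein synthesis while favouring the translation of ATF4, a transcription factor for amino acid and stress genes. IRE1 splices the Xbp1 messenger RNA, and ATF6 is cut in the Golgi, each yielding a transcription factor that drives genes for chaperones, disulfide isomerases, translocation and ER-associated degradation. In the vessel wall the response is known from smooth muscle and endothelial cells under lipid, oxidative and mechanical load.

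Many genes of the ATF6 and IRE1 branches carry an ER stress response element in their promoters, and the sequences are given first because the members that share them are followed through the results below. The promoters come from RefSeq (build GRCm38.p6), each reaching from 250 bases before to 50 after a gene's start, and 31 of the 35 members matched by symbol. The letters searched, on both strands, were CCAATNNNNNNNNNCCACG for the element ERSE, ATTGGNCCACG for ERSE-II, TGACGTGG for the UPRE that XBP1 is known to bind, and TTGCATCA for a CARE, the kind of site bound by ATF4 with its partners. ERSE stood in the promoters of 8 members, against 0.119% of all 32851 promoters, and ERSE-II in those of 2 members, against 0.0365%. The UPRE letters stood in no member's promoter and in 0.676% of all, and the CARE letters in 2 members' promoters and in 0.895% of all. The match of letters describes these windows and shows no binding. Only these exact letters were counted, so a member without a match may still hold a variant of an element. By branch, ERSE was found for 6 of 13 promoters of ATF6 and folding members, 2 of 10 of IRE1 members and 0 of 8 of PERK members. The sites are written 5′ to 3′ in the orientation of the element, with its fixed letters in capitals.
Hspa5: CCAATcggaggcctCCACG
Hsp90b1, farther from the start: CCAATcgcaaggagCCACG
Hsp90b1, nearer to the start: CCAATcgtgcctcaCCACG
Calr: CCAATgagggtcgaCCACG
Canx: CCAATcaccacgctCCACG
Creld2: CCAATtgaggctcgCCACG
Syvn1: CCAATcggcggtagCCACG
Dnajc3: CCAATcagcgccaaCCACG
Pdia6: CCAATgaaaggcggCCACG
Herpud1, ERSE-II: ATTGGgCCACG
Dnajb11, ERSE-II: ATTGGcCCACG

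Whole promoters are shown for 4 members on which the branches turn, with the matched letters in capitals: Hspa5 (chr2:34771840-34772139, plus strand) for a single ERSE, Hsp90b1 (chr10:86705395-86705694, minus strand) for 2 of them, Herpud1 (chr8:94386179-94386478, plus strand) for an ERSE-II with a CARE, and Chac1 (chr2:119350992-119351291, plus strand) for a CARE alone. Each reads 5′ to 3′ along the gene's own strand. With the start of the gene as base 0, the ERSE of Hspa5 began at base -65, the ERSEs of Hsp90b1 at -212 and -107, the ERSE-II of Herpud1 at -52 and its CARE at -112, and the CARE of Chac1 at -193.
Hspa5: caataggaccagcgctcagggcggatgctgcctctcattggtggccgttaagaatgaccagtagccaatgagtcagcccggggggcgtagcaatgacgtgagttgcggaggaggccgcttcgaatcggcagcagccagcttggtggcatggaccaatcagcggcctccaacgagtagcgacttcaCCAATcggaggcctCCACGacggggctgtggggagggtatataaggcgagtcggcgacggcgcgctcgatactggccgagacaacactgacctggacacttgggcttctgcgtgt
Hsp90b1: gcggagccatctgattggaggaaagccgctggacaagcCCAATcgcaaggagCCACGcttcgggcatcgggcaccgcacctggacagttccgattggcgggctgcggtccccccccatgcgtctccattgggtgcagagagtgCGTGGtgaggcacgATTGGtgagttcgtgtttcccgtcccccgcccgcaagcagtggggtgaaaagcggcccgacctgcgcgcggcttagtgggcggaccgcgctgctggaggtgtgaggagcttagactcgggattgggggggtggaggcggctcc
Herpud1: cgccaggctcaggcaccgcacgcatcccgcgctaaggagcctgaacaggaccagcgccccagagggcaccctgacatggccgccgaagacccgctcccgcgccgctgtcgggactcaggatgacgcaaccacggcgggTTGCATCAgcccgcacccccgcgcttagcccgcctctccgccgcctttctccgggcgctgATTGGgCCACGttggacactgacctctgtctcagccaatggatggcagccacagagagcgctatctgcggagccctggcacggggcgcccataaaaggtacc
Chac1: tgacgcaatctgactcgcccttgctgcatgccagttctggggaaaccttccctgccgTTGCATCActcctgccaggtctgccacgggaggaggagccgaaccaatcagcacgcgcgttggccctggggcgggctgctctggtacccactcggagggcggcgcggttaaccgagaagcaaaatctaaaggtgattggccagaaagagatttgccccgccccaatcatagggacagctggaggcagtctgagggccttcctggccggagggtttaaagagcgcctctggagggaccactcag

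The comparison of high fat with chow showed no member that passed an adjusted p of 0.05. The branches are given side by side, and the difference between them was not tested. Here and below, means were counted as higher or lower on the log2 scale of the test. Pdia4, counted as lower, had a linear mean of 183.3 on high fat against 182.8 on chow. Means on high fat diet exceeded those on chow for all 8 PERK members, whose median log2 fold change was 0.27, but for 6 of 8 with high fat replicate 2 or chow replicate 1 left out. Of the 16 ATF6 and folding members 13 had lower means, with a median of -0.18, and of the 10 IRE1 members tested 6 had lower means, with a median of -0.17. Over all probe sets tested 51.8% had lower means, and the IRE1 count is near that share. With the arrays scaled to equal medians, which put 59% of all probe sets lower, 9 of 10 IRE1 members, 15 of 16 ATF6 and folding members and 1 of 8 PERK members had lower means. The differences were small: the largest were Trib3, at 89.4 ± 39.1 against 47.5 ± 8.6 (SD, n = 3 each), and Herpud1, at 382.1 ± 93.5 against 557.0 ± 164.6.

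Of the 35 members 34 entered the test, which kept the probe sets with a mean above the 40th percentile, a signal of 40.7, and Ern1 stayed under it. Signals were compared as log2(signal + 6) with limma, and each log2 fold change here is high fat minus chow on that scale, which understates the change of low signals. With Benjamini-Hochberg adjustment over all 13575 probe sets tested, limma called 0 of the 34 members, and 0.0737% of all probe sets. The smallest adjusted p of a member was 0.594, for Trib3. At an unadjusted p of 0.05 there were 5 members, where 7.03% of all probe sets had such a p: Trib3 was higher (3.92% of all), and Xbp1, Hspa5, Manf and Herpud1 were lower (3.11% of all). The signals of the diets did not overlap for 6 of the 34 members, or 17.6%, beside 12.3% of all probe sets. In these, Trib3 and Ppp1r15a were higher on all 3 high fat arrays (6.26% of all probe sets), and Xbp1, Ssr1, Hspa5 and Manf were lower (6.08% of all). Lower means were found for 19 of the 34 members and for 51.8% of all probe sets, and the median log2 fold change was -0.08 over the members and -0.01 over all probe sets tested. Leaving out 1 array put the members' median between -0.13, with the first high fat array out, and -0.03, with the second chow array out. With the arrays scaled to equal medians, 25 of the 34 members had lower means. The pools, not the animals, are the replicates. The p-values and standard errors rest on the spread between pools of a diet, which limma draws toward that of other probe sets of similar signal.

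**Figure D1:**
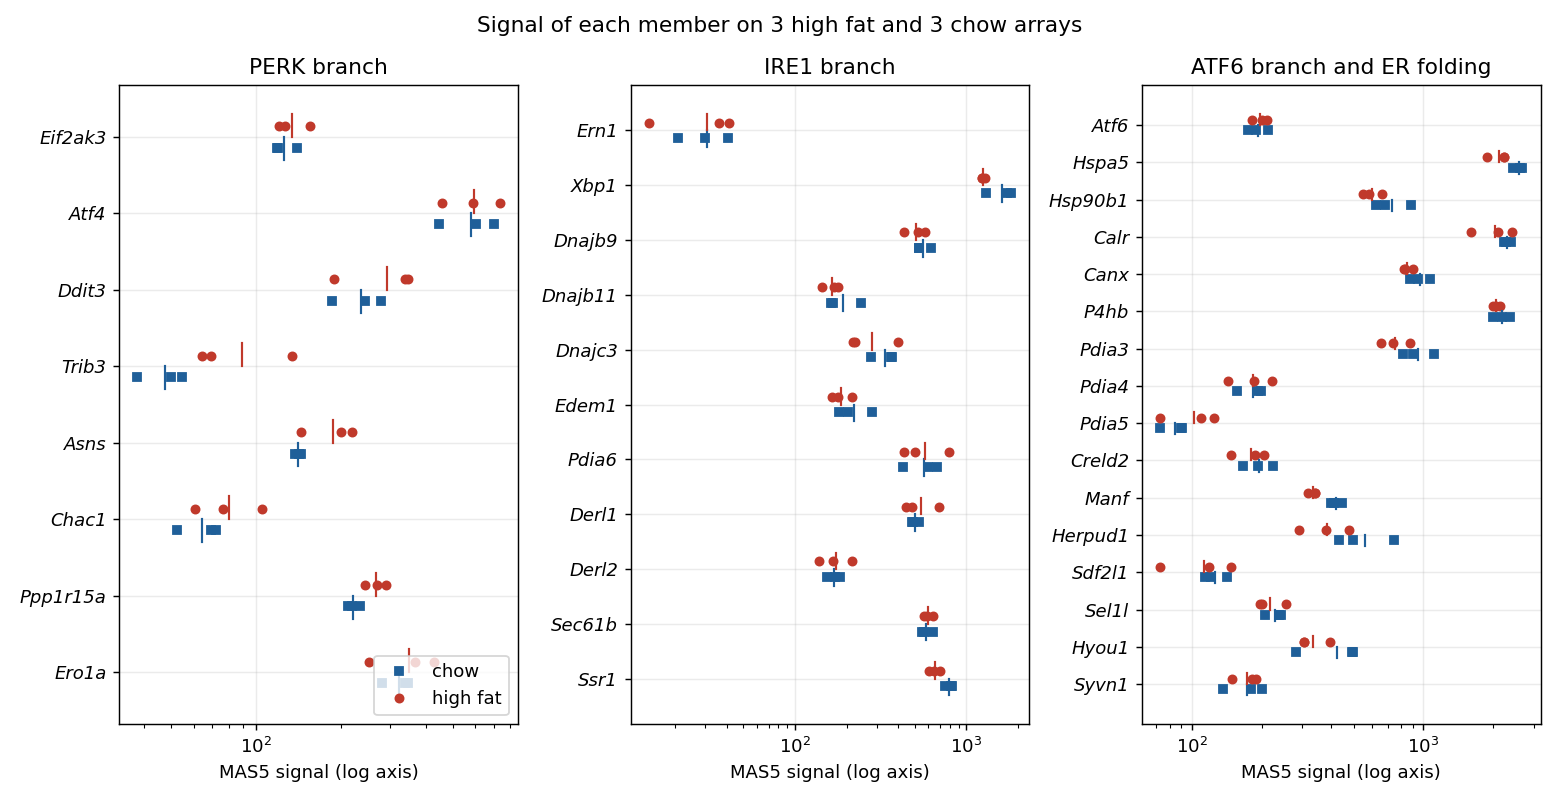
MAS5 signal (log axis) of the 35 members in 3 panels by branch, with a point for each of 3 high fat arrays (circles) and 3 chow arrays (squares) and a short line at each diet's mean. For Manf the high fat points, 316.8 to 340.5, sit below the chow points, 400.0 to 445.1, while for Atf4 and Pdia6 the points of the diets overlap widely.

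**Figure D2:**
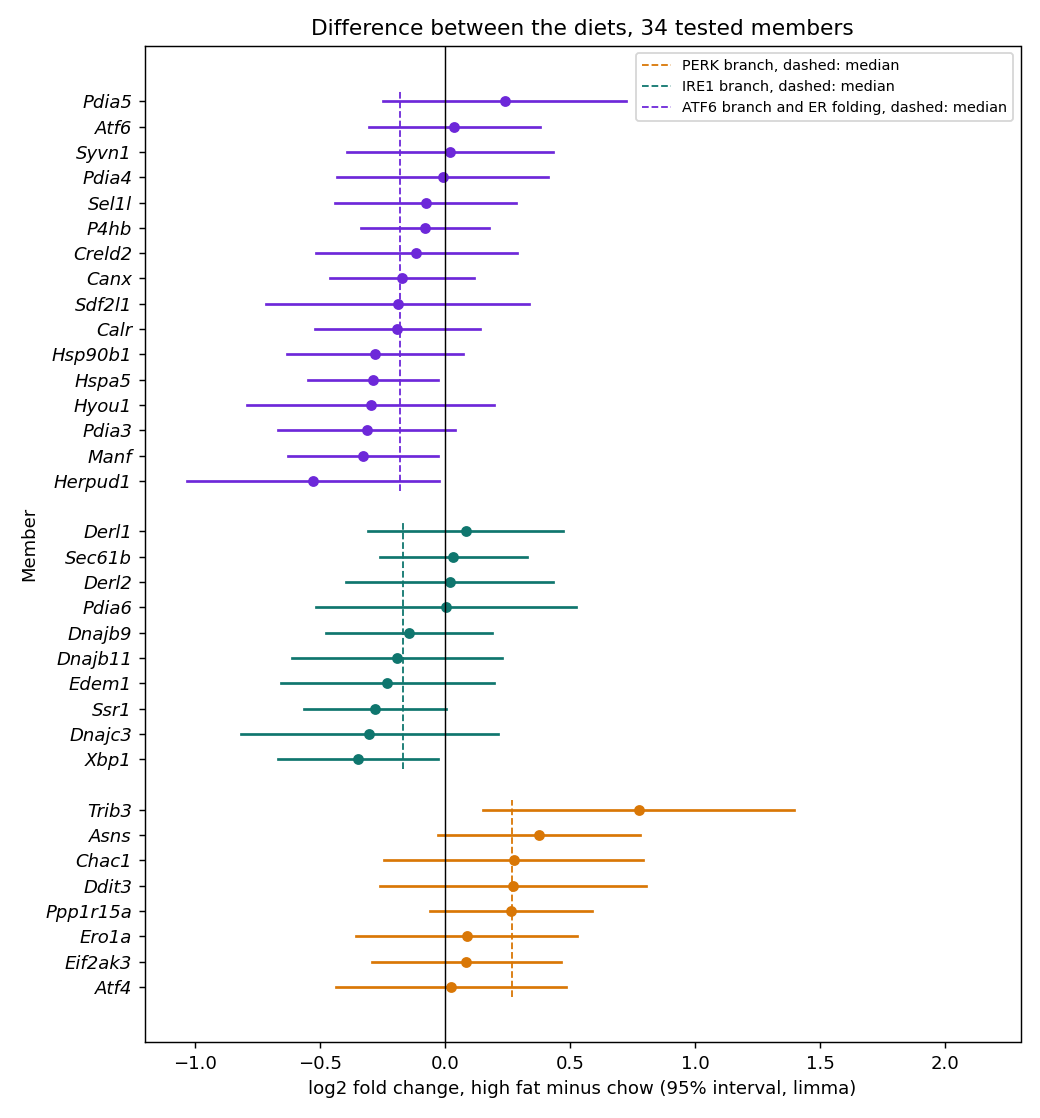
Log2 fold change (high fat minus chow) of the 34 tested members with its 95% interval from limma, coloured by branch, with a dashed line at each branch's median. The medians are 0.27 for PERK, -0.17 for IRE1 and -0.18 for ATF6 and folding, and the intervals of 29 members include 0.

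The PERK branch begins with Eif2ak3, which encodes PERK itself. Its signals were 120.3, 155.6 and 127.2 on high fat replicates 1 to 3 and 118.4, 119.9 and 139.4 on chow replicates 1 to 3, which overlapped, and its log2 fold change was 0.09 ± 0.17 (SE). Atf4, the transcription factor of the branch, had 456.8, 733.0 and 589.4 on high fat and 445.3, 699.6 and 602.3 on chow. In each diet replicate 1 was lowest and replicate 2 highest, and the log2 fold change of 0.02 had a 95% interval of -0.43 to 0.48. Leaving out high fat replicate 2 gave -0.02 for Eif2ak3 and -0.14 for Atf4, and leaving out chow replicate 1 gave -0.16 for Atf4. Ddit3, which encodes CHOP, a transcription factor that ATF4 induces and that favours cell death when stress persists, had 189.7, 347.0 and 338.8 on high fat and 186.3, 277.1 and 243.0 on chow. High fat replicates 2 and 3 lay above every chow pool and high fat replicate 1 did not, and the log2 fold change was 0.27 ± 0.24, which became 0.55 when high fat replicate 1 was left out, 0.14 when high fat replicate 3 was, and 0.12 when high fat replicate 2 or chow replicate 1 was.

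Trib3, a pseudokinase induced by ATF4 and CHOP that binds the kinase AKT, had 69.4, 134.5 and 64.3 on high fat and 50, 37.9 and 54.6 on chow. All high fat pools were above all chow pools, and replicate 2 stood well above the other high fat pools. Its log2 fold change of 0.77 (95% interval 0.15 to 1.39) had an unadjusted p of 0.0192 and an adjusted p of 0.594 in limma, and without high fat replicate 2 it was 0.46. Its probe set is of a type that can also bind related transcripts, as are those chosen for Derl1, Canx and Hyou1. The further Trib3 probe set, under the filter, had a log2 difference of 0.27 with overlapping pools. Asns, the asparagine synthetase and a standard ATF4 target, had 144.3, 219.2 and 200.8 on high fat and 142.1, 144.6 and 137.8 on chow. The chow pools lay close together, high fat replicate 1 shared their level, and the log2 fold change was 0.38 ± 0.18 (adjusted p = 0.735, limma).

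Ppp1r15a encodes GADD34, which brings a phosphatase to the factor that PERK phosphorylates and so restores translation. Its signals were 288.7, 244.5 and 269.2 on high fat and 219.3, 211.6 and 234.0 on chow. The diets did not overlap, the log2 fold change was 0.26 ± 0.15 (unadjusted p = 0.101, adjusted p = 0.756, limma), and leaving out any 1 array gave 0.21 to 0.32. This was the member of the branch for which high fat replicate 2 was the lowest of the high fat pools. Chac1, which degrades glutathione and whose promoter holds the CARE shown above, had 80.5 ± 22.3 against 64.5 ± 10.5, and Ero1a, an oxidase that recharges the disulfide isomerases, had 349.2 ± 89.7 against 322.2 ± 36.6, both with overlapping pools. Chac1 had a log2 fold change of 0.27, which ran from 0.08 without high fat replicate 2 to 0.45 without high fat replicate 3, and Ero1a had 0.09, which took either sign with 1 array left out. Of the 8 PERK members 6 were at their highest on high fat replicate 2 and 4 were at their lowest on chow replicate 1. The branch median of 0.27 was 0.10 without high fat replicate 2, with 6 of 8 members higher, and 0.13 without chow replicate 1, again with 6 of 8.

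In the IRE1 branch, Ern1, which encodes IRE1, had signals of 36, 14 and 41.4 on high fat and 20.7, 29.8 and 40.8 on chow. These lay at the level of background and gave a log2 difference of -0.06, which was not tested. Xbp1, whose messenger RNA IRE1 splices, had 1228, 1292 and 1236 on high fat and 1296, 1714 and 1820 on chow. The high fat pools lay close together and below the chow pools, but chow replicate 1 was only just above the highest of them. The log2 fold change was -0.35 (95% interval -0.67 to -0.03, unadjusted p = 0.0363, adjusted p = 0.676, limma), -0.25 without chow replicate 3 and -0.49 without chow replicate 1. The further Xbp1 probe sets had -0.62, -0.31 and -0.24, and in the first of these the pools did not overlap. The share of spliced Xbp1 was not analysed here.

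Dnajc3, a cochaperone also known as P58IPK that holds back PERK, carries an ERSE and had 399.5, 222.5 and 217.9 on high fat and 361.7, 276.8 and 368.0 on chow. High fat replicate 1 was the highest of the 6 and the other two high fat pools the lowest, and the log2 fold change of -0.30 was thus -0.58 with replicate 1 of high fat left out, -0.17 with replicate 2 and -0.15 with replicate 3. Its further probe sets had -0.34, -0.60, -0.10 and 0.12, and the second of these had no overlap and, in limma, the smallest p of the members' 63 tested probe sets (unadjusted p = 0.00554, adjusted p = 0.482). Ssr1, a subunit of the translocon-associated protein complex, had 608.6, 699.7 and 646.3 on high fat and 807.8, 824.1 and 745.4 on chow. All high fat pools were below all chow pools, with a log2 fold change of -0.28 ± 0.13 (unadjusted p = 0.0517, adjusted p = 0.707, limma), and its further probe sets had -0.45 and -0.29.

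The other IRE1 members had overlapping pools. The cochaperones Dnajb9 and Dnajb11, of which Dnajb11 holds an ERSE-II just after its start, had log2 fold changes of -0.15 and -0.19. Leaving out 1 array gave -0.23 to -0.04 for Dnajb9, nearest to 0 without high fat replicate 2, and -0.29 to -0.01 for Dnajb11, nearest to 0 without chow replicate 2. Edem1, a lectin that directs misfolded glycoproteins to degradation, had -0.23, which ran from -0.36 without chow replicate 1 to -0.05 without chow replicate 3. Pdia6, a disulfide isomerase with an ERSE, had 434.7, 793.3 and 498.4 on high fat and 424.9, 670.9 and 598.0 on chow, and its log2 fold change of 0.00 had a 95% interval of -0.51 to 0.52. As for Atf4, replicate 1 was lowest and replicate 2 highest in both diets. The retrotranslocation proteins Derl1 and Derl2 and the translocon subunit Sec61b had 0.08, 0.02 and 0.03, and Sec61b, at 596.4 ± 34.5 against 583.2 ± 45.3, had an interval of -0.26 to 0.33. Each of these 3 took either sign with 1 array left out. The branch median of -0.17 was -0.06 without chow replicate 3.

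Atf6 had signals of 181.4, 210.3 and 200.4 on high fat and 189.6, 212.7 and 174.7 on chow, overlapping throughout, with a log2 fold change of 0.04 and a 95% interval of -0.30 to 0.38. Hspa5 encodes BiP, the ER HSP70 that holds the sensors inactive and a standard readout of the response. It had 2237, 2232 and 1892 on high fat and 2445, 2677 and 2619 on chow. All high fat pools were below all chow pools, with a log2 fold change of -0.29 (95% interval -0.55 to -0.03, unadjusted p = 0.0342, adjusted p = 0.667, limma), and leaving out any 1 array gave -0.33 to -0.21. Its further probe set had 543.1, 441.5 and 507.1 on high fat and 707.5, 651.4 and 683.8 on chow, again without overlap, with a log2 fold change of -0.45 (unadjusted p = 0.00702, adjusted p = 0.512, limma).

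Manf, a secreted ER stress protein that binds BiP, had 339.4, 316.8 and 340.5 on high fat and 445.1, 400.0 and 410.9 on chow. It had the smallest spread between pools of a diet of the 35 members, 0.07 on the log2 scale beside a median of 0.23 for the tested members, and its diets did not overlap. The log2 fold change was -0.33 (95% interval -0.63 to -0.03, unadjusted p = 0.0345, adjusted p = 0.670, limma), and -0.36 to -0.28 without any 1 array. Herpud1, a membrane protein of the degradation complex whose promoter holds the ERSE-II and CARE, had 476.9, 290.0 and 379.3 on high fat and 743.8, 494.1 and 433.1 on chow. High fat replicate 1 exceeded chow replicate 3, so the diets overlapped. The log2 fold change was -0.53 ± 0.23 (unadjusted p = 0.0423, adjusted p = 0.684, limma) and moved to -0.30 when chow replicate 1 was left out and to -0.35 when high fat replicate 2 was, and its further probe set had -0.32.

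The remaining chaperones of the branch lay mostly below 0 with overlapping pools. Hsp90b1, the ER HSP90 with 2 ERSEs in its promoter, had 596.5 ± 57.8 against 730.6 ± 134.5 and a log2 fold change of -0.28, or -0.14 with chow replicate 1 left out. Its further probe set, with -0.21, only just did not overlap: the highest high fat pool had 453.0 and the lowest chow pool 453.8. The lectin chaperones Calr and Canx, each with an ERSE, had -0.19 and -0.17. Calr ran from -0.32 without high fat replicate 1 to -0.03 without high fat replicate 3, and Canx had -0.09 with chow replicate 1 left out. Hyou1, a large HSP70 relative that exchanges nucleotide on BiP, had -0.30, which was -0.56 without chow replicate 2, -0.16 without chow replicate 1 or 3, and -0.07 as the mean of its probe sets. Creld2 and Sdf2l1, small ER stress proteins, had -0.11 and -0.19, and both lay at or just above 0 without high fat replicate 3, at 0.02 and 0.08, while their lowest values with 1 array left out were -0.22 and -0.40.

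Among the disulfide isomerases, Pdia3, which works with the lectin chaperones, had 757.1 ± 107.3 against 943.5 ± 154.6, a log2 fold change of -0.31, or -0.19 with chow replicate 1 left out. P4hb, also a subunit of the collagen prolyl hydroxylase, had 2066 ± 71.2 against 2189 ± 183.4, a log2 fold change of -0.08. Its 95% interval of -0.33 to 0.17 was the narrowest of the 34. Pdia4 had -0.01 and Pdia5 0.24, the latter at 109.3, 124.8 and 72.8 on high fat and 72.8, 90.3 and 89.4 on chow. With 1 array left out Pdia5 ran from 0.09 (without high fat replicate 2) to 0.45 (without high fat replicate 3), and Pdia4 took either sign, from -0.15 to 0.15. In the degradation complex, Sel1l, an adaptor of the ubiquitin ligase, had -0.08, and Syvn1, the ligase HRD1, had 0.02 with an ERSE in its promoter and took either sign with 1 array left out. Without high fat replicate 3, the branch median of -0.18 was -0.10 and 10 of the 16 members had lower means.

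The 10 members with an ERSE or ERSE-II, all of them tested, had lower means in 8 cases and a median log2 fold change of -0.19, from -0.53 for Herpud1 to 0.02 for Syvn1. In this set 2, Hspa5 and Herpud1, had an unadjusted p under 0.05, and in 1, Hspa5, the pools did not overlap, beside 7.03% and 12.3% of all probe sets, and the latter count is near its background. The 20 tested members whose promoter held neither element had lower means in 9 cases and a median of 0.02. All 8 PERK members, each with a higher mean, are among these 20, so the 9 lower ones belong to the other branches. This is a description: the sets differ in branch, and the difference between them was not tested.

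Further probe sets, which read the same pools and so are no added replicates, gave a second tested reading for 16 of the 35 members. Of the 73 probe sets, 63 passed the filter, 44 had lower means and 19 higher ones, with a median log2 fold change of -0.11. None was called in limma at an adjusted p of 0.05, the smallest being 0.482, and 9 had an unadjusted p under 0.05 (7.03% of all probe sets), 8 lower (3.11% of all) and 1 higher (3.92% of all). Of 16 members with more than 1 tested probe set, 10 had all of theirs below 0 and the other 6 had them on both sides. The 10 included Xbp1, Edem1 and Ssr1 of the IRE1 branch and all 7 such members of the ATF6 branch, Hspa5, Hsp90b1, Calr, Canx, Herpud1, Sel1l and Hyou1. Asns, Atf4 and Ero1a of the PERK branch were among the 6: the further Asns probe set, at lower signals, had -0.12 where the chosen one had 0.38, and their mean had 0.13.

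**Figure D3:**
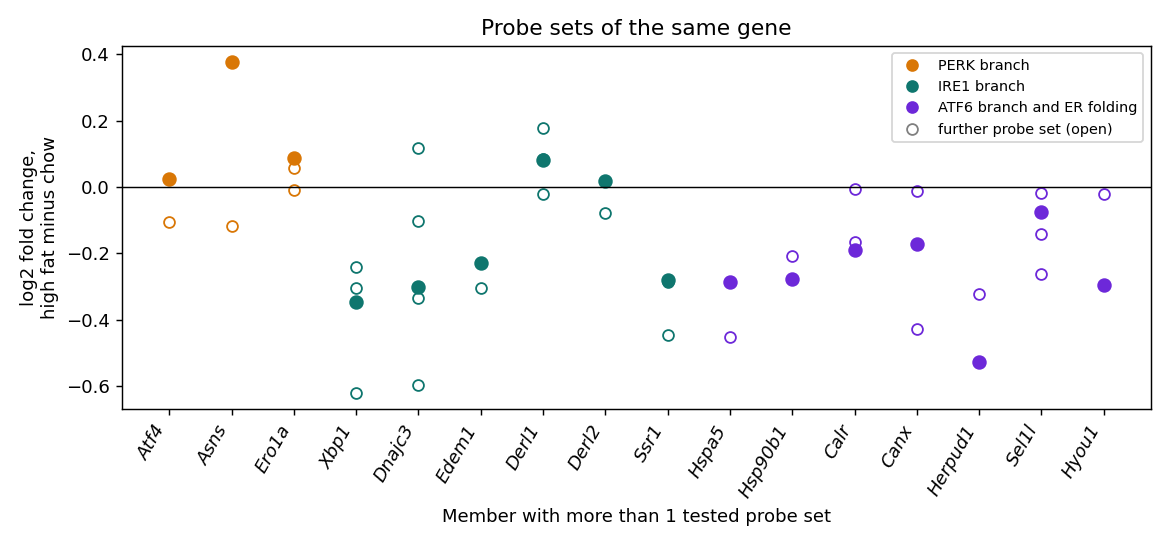
Log2 fold change (high fat minus chow) of every tested probe set of the 16 members with more than 1, filled for the chosen probe set and open for the further ones, coloured by branch. All probe sets of the 7 ATF6 and folding genes lie below 0, and those of the 3 PERK genes lie on both sides.

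By array, the mean log2 deviation of the PERK members from their mean over 6 arrays was -0.12, 0.39 and 0.13 on high fat replicates 1 to 3 and -0.28, -0.09 and -0.04 on chow replicates 1 to 3. High fat replicate 2 was highest and high fat replicate 1 lay among the chow pools. For the ATF6 and folding members it was 0.05, -0.07 and -0.22 on high fat and 0.16, 0.02 and 0.06 on chow, so that on this measure high fat replicate 1 again lay within the chow pools. The IRE1 members, Ern1 included, had -0.02, -0.18 and 0.01 on high fat and -0.07, 0.08 and 0.19 on chow. In summed signal, where the strongest genes weigh most, the ATF6 and folding members did not overlap, at 9708.5 to 11647 on high fat and 12058.1 to 12613.7 on chow. The sums overlapped for PERK members, at 1597.2 to 2306.1 against 1494 to 1906.9, and for IRE1 members, at 4879.9 to 5052 against 5004.4 to 5977.3. Fewer cells of a type and less RNA per cell cannot be told apart in these pools.

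Markers of other cell types differed between the pools too. All 8 cardiac markers had their higher mean with high fat feeding, with none at an unadjusted p under 0.05 in limma, and their summed signal ran from 784.6 to 4838 on high fat and from 800.2 to 2453 on chow. High fat replicates 2 and 3, the pools highest in PERK members, were also the highest in cardiac markers. Among the chow pools the order differed. By mean log2 deviation, chow replicate 3 was the chow pool highest in PERK members (-0.04) and lowest in cardiac markers (-0.96). Chow replicate 1 was the lowest of all in PERK members (-0.28), with -0.18 for cardiac markers. Of 8 macrophage markers 7 were tested and 6 had higher means, 5 of them at an unadjusted p under 0.05 in limma (3.92% of all probe sets). The list summed to 2404 to 4080 against 1858 to 2301, highest on high fat replicate 2. Of 8 adipocyte markers 6 were on the array and summed to 8382 to 9393 against 6287 to 7983. In that list Lep lay under the filter, 4 of the 5 tested had higher means, and Retn was lower at an adjusted p under 0.05. Endothelial markers summed to 1347 to 1590 against 1170 to 1235, with 7 of 8 higher, and the 4 nerve markers of 6 that were on the array to 1411 to 1767 against 1312 to 1598, with 3 higher. Smooth muscle markers summed to 22427 to 23943 against 21472 to 27316, with 6 of 8 lower, and fibroblast markers to 8671 to 9220 against 9432 to 9971, with 4 of 8 lower. Plasma and B cell markers, of cells that secrete heavily and carry much ER, summed to 310.2 to 347.2 against 301.0 to 335.1 over 6 of 8 genes, of which 3 lay under the filter, among them Jchain and Tnfrsf17. At an unadjusted p under 0.05 in limma, 2 endothelial, 2 adipocyte and 1 nerve marker were higher (3.92% of all probe sets). Lower at that p was 1 adipocyte marker (3.11% of all), and no smooth muscle, fibroblast or plasma and B cell marker was called. No marker list was tested as a cause, and the part of these cells in the members' values was not tested.

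**Figure D4:**
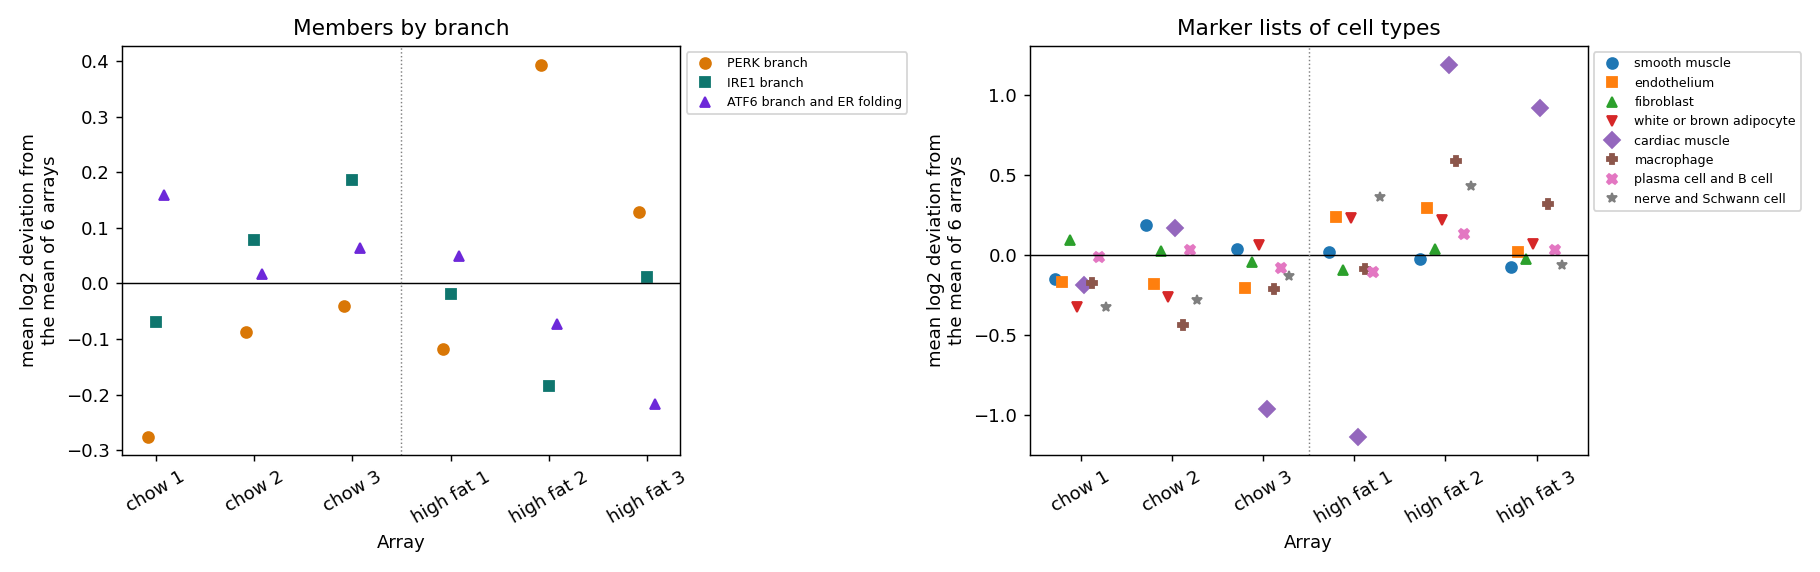
Mean log2 deviation from the mean of 6 arrays, by array, for the members of each branch (left) and for the marker lists of cell types (right), with a dotted line between the diets. PERK members peak at 0.39 on high fat replicate 2, where the cardiac list stands at 1.19 and the macrophage list at 0.59. On chow replicate 3 the PERK members stand at -0.04 and the cardiac list at -0.96.

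The wider pathway was described by 112 further genes in 5 lists, of which 103 were on the array and 94 were tested. None of the 94 was called in limma at an adjusted p of 0.05. At an unadjusted p under 0.05 there were 2, both higher, beside 3.92% of all probe sets higher and 7.03% in either direction. The pools did not overlap for 16, 9 higher and 7 lower (17% beside 12.3% of all probe sets). In the list of integrated stress response genes, which are driven by ATF4 or lie beside PERK, 16 of 20 tested had higher means and the median log2 fold change was 0.19. Atf3, a transcription factor induced by ATF4, had 185.3 ± 37.6 against 133.4 ± 9.7 (log2 fold change 0.44, unadjusted p = 0.032, adjusted p = 0.657, limma). Gars, the glycyl-tRNA synthetase, had 426.3 ± 50.2 against 330.6 ± 38.0, a log2 fold change of 0.36. In this list 5 members had non-overlapping pools, each higher on high fat diet (6.26% of all probe sets).

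The translocation, signal peptidase and glycosylation genes had lower means for 22 of 24 (51.8% of all probe sets) and a median of -0.10, and 4 did not overlap, each lower (6.08% of all). Spcs3, a signal peptidase subunit, had 201.3 ± 22.6 against 256.6 ± 31.7 (log2 fold change -0.34), and Ddost, a subunit of the oligosaccharyltransferase, 854.7 ± 61.0 against 1034 ± 88.7 (-0.27). Among the other folding enzymes and chaperones 13 of 21 had lower means, with a median of -0.08. There, Dnajc10, an ER disulfide reductase, had a log2 fold change of -0.29 and Fkbp2, a prolyl isomerase, 0.25. ER-associated degradation genes had 10 of 17 lower and a median of -0.02, with Ubxn4 at 0.30 and Ube2j2, a ubiquitin-conjugating enzyme, at 0.25. The other stress sensors and proteases had 6 of 12 lower and a median of -0.05. In these, Atf6b, a relative of ATF6, had 77.9 ± 26.5 against 114.3 ± 27.0 (log2 fold change -0.55), and Mbtps1, the site-1 protease that cuts ATF6, had -0.26.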

How the data were processed

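Per the submitters' processing notes the deposited signal intensities were made with MAS5, settings not given in the sources used here. Deposited were 22690 probe sets on 6 arrays, and 64 controls were left out. The platform table gave 20380 probe sets 1 symbol, 691 several and 1555 none. By gene ID 20351 matched the RefSeq gene table, and 0 symbols changed. A pseudocount of 6, the 10th percentile of the signals, was added before log2. Two-sided limma tests (version 3.58.1 in R 4.3.3, lmFit and eBayes, variance trend on) ran on the 13575 probe sets above the 40th percentile, and p-values were adjusted over these by Benjamini-Hochberg. The steps were tested on simulated data. Named in full were the sensors, Xbp1, Atf4, Ddit3, Hspa5 and the 3 members of smallest unadjusted p in each branch. In each further list the 2 of smallest p were named. The single markers in the text were picked once their values were known. The members and lists were chosen with earlier results of these data known. The other settings took a pseudocount of 1 or 20, dropped the filter or set it at the 60th percentile, and used quantile or median normalization, no variance trend, a replicate block, each array left out, and the mean of a gene's probe sets. Python 3.11.15 and pandas 2.3.3 made the tables.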

Additional observations from a re-analysis of the deposited data

How the results depend on the processing

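No member passed an adjusted p of 0.05 in limma in any of the 15 other settings. The count over all probe sets, 10, was 6 with no filter, 5 without the variance trend, 5 with the replicate block, and 5 to 16 with an array left out (5 on leaving out replicate 2 of either diet, 16 on leaving out the first high fat array). The 5 members at an unadjusted p under 0.05 in limma became 1, Trib3, without the variance trend, where 954 of all 13575 probe sets became 908. With the first high fat array left out there were 7 members (1129 of all probe sets). Leaving out replicate 2 gave 2 members for either diet (615 of all for high fat, 716 for chow). Leaving out any other array gave 3 members (803 to 1162 of all). With an array left out the median was -0.21 to -0.0612 for IRE1 members, 0.10 to 0.30 for PERK members and -0.23 to -0.10 for ATF6 and folding members. Small differences changed sign: with equal medians Atf6 had -0.0052 and Atf4 -0.0192, and with an array left out Eif2ak3 ran from -0.0205 to 0.16, Atf6 from -0.0269 to 0.11 and Atf4 from -0.16 to 0.20. These were 7 of 193 recomputed values of the members named in full, and the other 186 kept their direction and stayed above the threshold. Among the other members, Ero1a, Pdia6, Derl1, Derl2, Sec61b, Pdia4, Creld2, Sdf2l1 and Syvn1 also took either sign over the settings. The cause of these shifts was not tested, beyond the smaller number of arrays. Same-numbered pools had correlations of deviations of 0.03, 0.17 and -0.11. With 3 pools a diet these values cannot decide whether the replicate number pairs the pools. The replicate block changed no call among the members at an adjusted p of 0.05. With it, 6 members had an unadjusted p under 0.05 in limma, as had 1068 of all 13575 probe sets. The number of arrays limits the precision, and signals near background, as for Ern1, hold little information.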
